A study of Mus musculus with 4 samples.

Results

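Kinesins are motor proteins that walk along or take apart microtubules, and the centromere proteins (CENPs) build the chromosomal platform to which spindle microtubules attach. Both families were read here as 44 genes, chosen by symbol from the 32285 genes of 2 single-cell libraries: 61 symbols began with Kif and a digit or with Cenp and a letter, and 44 of them reached 5 per 1000000 gene unique molecular identifiers (UMIs, one for each captured transcript) over all barcodes of at least 8000 gene UMIs. Just above that minimum lay Kif24 at 5.88 and Kif21a at 6.28 counts per 1000000 gene UMIs (CPM), and just below it Kif17 at 3.74 and Kif3c at 2.21 CPM. The 44 members comprised 11 mitotic kinesins, 9 transport kinesins, 2 other kinesins, 17 inner centromere proteins, the outer kinetochore proteins Cenpe and Cenpf, 2 other CENPs (Cenpj and Cenpv) and Kif1bp. Kif1bp is matched by its symbol alone and encodes a kinesin-binding protein, not a motor.

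The knockout library (KO) came from Vav-Cre:Bclaf1f/f embryos, in which a recombinase driven in blood cells acts on floxed Bclaf1, and the control library (WT) from Bclaf1f/f embryos without the recombinase. Both held LSK cells, the lineage-negative, Sca1-positive, c-Kit-positive population of blood stem cells and early progenitors, sorted from E17.5 fetal liver after bead enrichment for c-Kit. Each library was 1 pool of 10 embryos, with 20000 cells sorted and 10000 loaded, so there was 1 sample per genotype for RNA and 1 for surface tags. No p-value was therefore computed, no difference has a replicate check, and all intervals are 95% intervals that cover counting error alone.

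In dividing cells, mitotic kinesins separate spindle poles, move chromosomes and cut the cell at cytokinesis, and their transcripts and those of many CENPs are made mainly late in the cell cycle. The inner centromere proteins sit on centromeric chromatin through the cycle around the histone variant CENP-A. Transport kinesins carry vesicles, organelles and RNA in resting as well as dividing cells. Fetal liver stem and progenitor cells, unlike most adult marrow stem cells, divide often.

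After filtering, 2742 KO cells (104951740 gene UMIs, median 33481 per cell) and 5352 WT cells (141475677 gene UMIs, median 22701.5 per cell) were kept, and 5 cell barcodes occurred in both libraries. Bclaf1 stood at 75.9 CPM in KO and 217.8 CPM in WT (log2 -1.52); which exons the floxed alleles remove was not given in the sources used here. A list of 12 stem cell markers summed to 518 CPM in KO and 612 CPM in WT, and Ly6a, which encodes Sca1, stood at 9.67 CPM in KO and 12.8 CPM in WT. A list of 9 macrophage and monocyte markers summed to 85.1 CPM in KO and 106 CPM in WT, and 7 of the 9 were under 1 CPM in both libraries. Cells passing a lineage gate for erythroid markers made up 12.9% of KO and 5.10% of WT cells.

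Promoter windows from RefSeq (GRCm38.p6; 250 bases before to 50 after each start, first window of each gene) were matched to 39 of the 44 members and are shown first because the results turn on when in the cell cycle each gene was high, and the words searched are known from promoters of cell cycle genes. No window was matched for Kif20a, Kif5b, Kif13b, Kif21b and Kif1bp. Words searched on both strands were TTTGAA or TTCGAA, the core of the CHR element that the MuvB complex binds, CCAAT, the word bound by NF-Y, and TTCCCGC or TTGGCGC, a form of the E2F site. A base could count toward more than 1 word. The 6 windows below were chosen after the matches were seen. They set side by side 3 genes with high transcript levels in mitosis (Kif11, Kif18b, Cenpf), the centromeric histone Cenpa, Cenpm and the transport kinesin Kif1b. Cenpm was higher in S phase cells than in cells low for cycle genes, and highest in G2. Capitals mark every match.
Kif11 (chr19:37376132-37376431, plus strand): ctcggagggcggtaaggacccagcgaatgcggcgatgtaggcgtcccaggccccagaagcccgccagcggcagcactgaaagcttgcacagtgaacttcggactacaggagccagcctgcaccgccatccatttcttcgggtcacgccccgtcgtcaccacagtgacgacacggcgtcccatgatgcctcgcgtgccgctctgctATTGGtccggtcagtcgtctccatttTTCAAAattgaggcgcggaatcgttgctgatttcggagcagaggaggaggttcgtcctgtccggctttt
Kif18b (chr11:102925075-102925374, minus strand): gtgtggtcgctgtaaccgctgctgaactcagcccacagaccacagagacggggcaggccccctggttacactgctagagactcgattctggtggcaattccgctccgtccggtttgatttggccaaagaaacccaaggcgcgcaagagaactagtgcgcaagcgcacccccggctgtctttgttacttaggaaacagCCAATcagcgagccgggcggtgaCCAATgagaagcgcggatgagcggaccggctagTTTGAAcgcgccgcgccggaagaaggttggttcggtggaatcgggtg
Cenpf (chr1:189688037-189688336, minus strand): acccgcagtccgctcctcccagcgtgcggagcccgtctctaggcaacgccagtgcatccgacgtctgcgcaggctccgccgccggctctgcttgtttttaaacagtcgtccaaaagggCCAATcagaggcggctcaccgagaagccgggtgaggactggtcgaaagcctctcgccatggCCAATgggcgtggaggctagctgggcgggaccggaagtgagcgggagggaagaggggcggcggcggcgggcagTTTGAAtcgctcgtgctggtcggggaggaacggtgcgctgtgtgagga
Cenpa (chr5:30666636-30666935, plus strand): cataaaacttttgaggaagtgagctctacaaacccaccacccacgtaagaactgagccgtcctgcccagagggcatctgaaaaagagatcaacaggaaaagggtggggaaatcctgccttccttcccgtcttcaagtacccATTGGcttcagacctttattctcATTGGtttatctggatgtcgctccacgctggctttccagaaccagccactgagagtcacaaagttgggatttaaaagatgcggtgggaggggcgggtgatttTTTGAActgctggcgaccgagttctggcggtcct
Cenpm (chr15:82244287-82244586, minus strand): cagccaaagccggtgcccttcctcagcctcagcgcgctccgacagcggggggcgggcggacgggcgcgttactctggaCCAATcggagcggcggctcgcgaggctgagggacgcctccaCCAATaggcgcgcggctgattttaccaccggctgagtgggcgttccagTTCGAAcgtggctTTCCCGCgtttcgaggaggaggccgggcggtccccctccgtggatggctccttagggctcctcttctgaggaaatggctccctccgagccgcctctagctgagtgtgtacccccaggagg
Kif1b (chr4:149307684-149307983, minus strand): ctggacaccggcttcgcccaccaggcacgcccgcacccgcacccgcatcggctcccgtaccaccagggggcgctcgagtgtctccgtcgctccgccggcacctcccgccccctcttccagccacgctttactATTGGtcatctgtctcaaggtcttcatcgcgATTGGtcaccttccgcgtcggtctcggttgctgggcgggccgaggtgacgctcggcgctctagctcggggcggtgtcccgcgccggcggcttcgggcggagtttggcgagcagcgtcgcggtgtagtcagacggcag

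With the first base of the gene as position 1, a CHR word began at position 3 in Cenpf, 4 in Kif18b and 17 in Cenpa, with 2 CCAAT words before the start in each window. In Kif11 the CHR word began at -19 and CCAAT at -45, both on the opposite strand. Cenpm held an E2F word at -70 beside a CHR word at -83, and Kif1b held 2 CCAAT words and neither of the others. A CHR word lay in 16 of 39 member windows (41.03%), against 19.4% of 27025 promoter windows of the same length. Among mitotic kinesins it lay in 9 of 10 windows, among inner centromere proteins in 5 of 17 and among transport kinesins in 0 of 6. An E2F word lay in 8 of 17 inner centromere windows (47.1%) and in 2 of 10 mitotic kinesin windows, against 6.93% of all promoters. CCAAT lay in 24 of 39 member windows (61.5%), against 37.9% of all. These matches describe the letters of the windows and do not show binding.

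Cells were sorted into cycle gates by lists of mitosis (M), G2 and S phase genes that hold no kinesin or CENP gene. The M gate took the highest 10% of all cells by its list, the G2 gate those among the highest 20% by its own list that were not in M, the S gate those among the highest 35% by its own that were in neither, and the low gate the rest. Within 10% of the limit lay 3.60% of all cells for M, 6.25% for G2 and 11.0% for S, so the gates are ranges and not cell types. Of 44 members 40 were highest in the same gate in KO and WT. In the comparison of M with low cells, 31 of 44 members were at least 25% higher in KO (background 14.8% of all genes tested) and 31 of 44 in WT (background 13.8%), while the same 2, Cenpv and Kif21a, were at least 20% lower in KO (background 8.23%) and in WT (background 9.75%). In G2 over low cells 31 members were higher in KO (background 15.9%) and 31 in WT (background 15.7%), with 0 lower in KO (background 14.2%) and 0 in WT (background 13.4%). In S over low cells 27 were higher in KO (background 14.4%) and 26 in WT (background 14.2%). The 4 lower in S were Cenpa, Kif21b, Kif3a and Kif3b in KO (background 20.4%) and Cenpa, Kif21b, Kif3a and Kif1bp in WT (background 18.1%).

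All 11 mitotic kinesins were at least 25% higher in M than in low cells in both libraries, with summed levels of 1058 CPM in M and 162 CPM in low KO cells (6.54-fold), and 976 CPM in M and 135 CPM in low WT cells (7.24-fold). Kif14, needed for cytokinesis, stood at 33.9 CPM in M and 3.79 CPM in low KO cells (log2 3.16), and at 31.1 and 2.18 CPM in WT (log2 3.83). Kif18b, a microtubule plus-end kinesin, differed by log2 3.29 in KO and 3.86 in WT. Kif11, the motor that pushes spindle poles apart, stood at 198 CPM in M and 19.8 CPM in low KO cells (log2 3.32), and at 161 and 15.1 CPM in WT (log2 3.42). In both libraries 10 mitotic kinesins were highest in the M gate, and Kif15, which shares pole separation with Kif11, was highest in G2 at 136 CPM in KO and 130 CPM in WT. Kif23, the motor of the centralspindlin complex in cytokinesis, stood at 30.5, 26.3, 70.7 and 135 CPM in the low, S, G2 and M gates of KO, and at 30.7, 30.5, 76.0 and 141 CPM in those of WT.

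Cenpf, a large corona protein of the outer kinetochore, stood at 47.6, 50.2, 196 and 544 CPM in the low, S, G2 and M gates of KO, and at 35.3, 38.6, 180 and 430 CPM in those of WT. Cenpe, the plus-end kinesin that gathers chromosomes at the spindle equator, stood at 41.2, 34.3, 121 and 265 CPM in KO and at 33.2, 27.4, 113 and 233 CPM in WT. Both were far higher in G2 and M than in S and low cells. Their sum over that in low cells was log2 -0.07 in S, 1.83 in G2 and 3.19 in M of KO, and -0.05, 2.10 and 3.28 in WT.

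**Figure D1:**
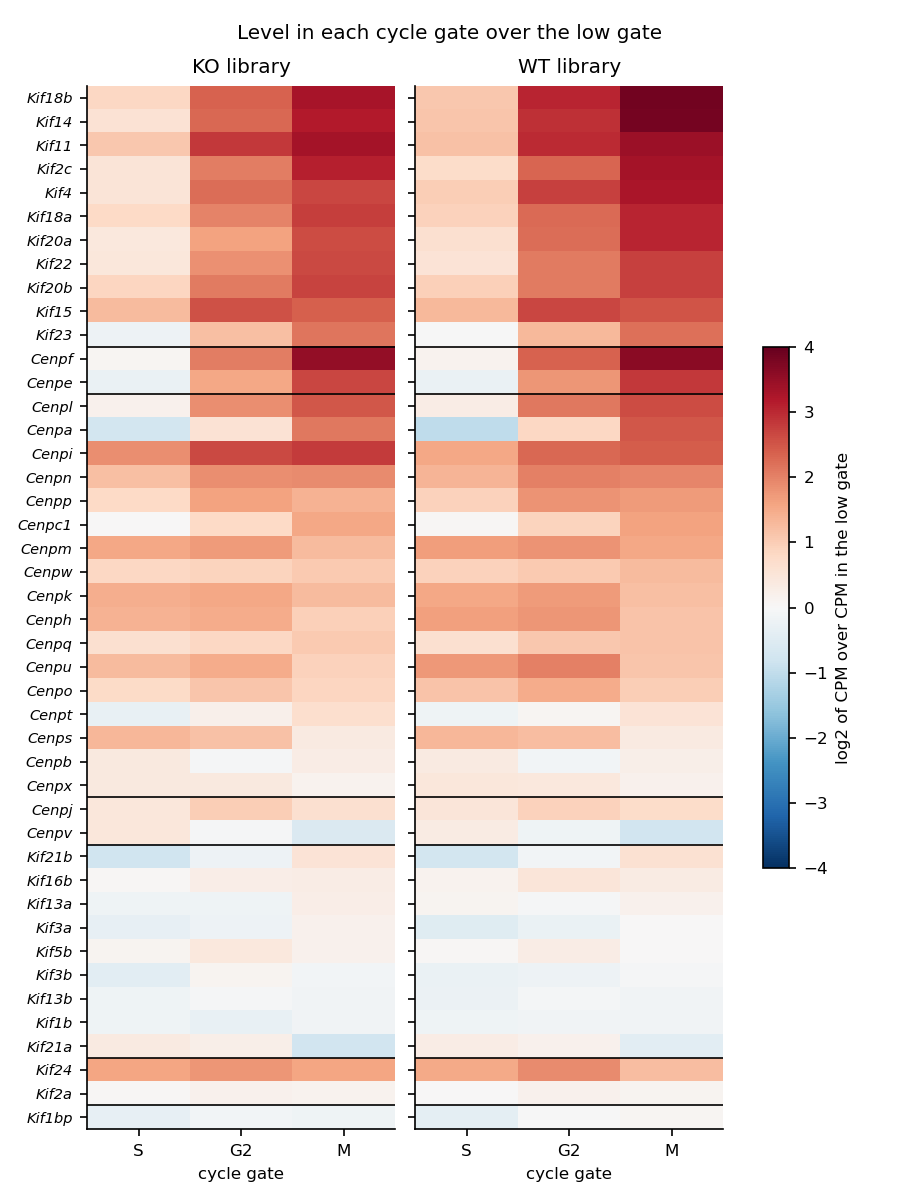
Heat maps of 44 members in the KO library (left) and the WT library (right). Rows are grouped by role and ordered by their M over low ratio in WT. Colour gives log2 of CPM in the S, G2 or M gate over CPM in the low gate. Cenpf, Cenpe and the mitotic kinesins other than Kif15 are darkest in M, and Kif15 is darkest in G2. Many inner centromere proteins are raised in S and G2 as well, and transport kinesins differ less from the low gate.

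Inner centromere proteins spread over the cycle. In KO 3 of 17 (Cenpb, Cenps and Cenpx) were highest in S, 6 in G2 and 8 in M, and in WT the same 3 in S, 7 in G2 and 7 in M. Cenpa, the histone variant that marks centromeres, was highest in M (422 CPM in KO, 475 CPM in WT) and lowest in S (58.2 CPM in KO, 41.8 CPM in WT), below the low gate in both libraries (97.3 and 84.0 CPM). Cenph, Cenpm, Cenpu and Cenpk, subunits of the constitutive centromere network, had the highest S over low levels in WT by the lower bound of the interval. Cenph stood at 101 CPM in S and 38.1 CPM in low KO cells (log2 1.40), and at 91.0 and 29.0 CPM in WT (log2 1.65). Cenpm differed by log2 1.54 in KO and 1.66 in WT, Cenpu by 1.27 in KO and 1.73 in WT, and Cenpk by 1.46 in KO and 1.56 in WT. Cenpi, a subunit of lower counts, differed by 1.85 in KO and 1.54 in WT. Over the whole list, M over low was 2.27-fold in KO and 2.51-fold in WT, lower than for mitotic kinesins.

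Transport kinesins had summed levels of 203 CPM in M and 184 CPM in low KO cells (log2 0.15) and 181 and 174 CPM in WT (log2 0.05). The sum, of which Kif5b made up the most, covers members that went both ways. Kif21b stood at 12.1, 7.02, 10.4 and 17.7 CPM in the low, S, G2 and M gates of KO and at 12.1, 7.32, 11.2 and 18.6 CPM in those of WT, whereas Kif21a was lower in M, at 3.76 CPM in M and 6.32 CPM in low KO cells and at 4.22 and 5.60 CPM in WT. The gate of the highest level varied among the 9, with 2 highest in low, 1 in S, 2 in G2 and 4 in M in KO, and 3, 1, 2 and 3 in WT. Among the remaining members Kif24, a kinesin that depolymerises microtubules at centrioles, was highest in G2 at 9.01 CPM in KO and 9.58 CPM in WT, and Kif2a, a microtubule depolymerase, varied little (88.6 to 100.1 CPM in KO and 80.7 to 91.5 CPM in WT). Cenpj, a centriole protein, was highest in G2, and Cenpv was highest in S.

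Over all cells, the mitotic kinesins and outer kinetochore CENPs were higher in KO, and the summed levels of transport kinesins and inner centromere proteins were higher by less. At the threshold used throughout, 10 of 44 members were at least 25% higher in KO (background 7.47% of 9231 genes) and 0 were at least 20% lower (background 2.56%). The median log2 of KO over WT was 0.17 over the members and 0.07 over all genes. By role, 6 of 11 mitotic kinesins, 2 of 2 outer kinetochore CENPs, 2 of 17 inner centromere proteins and 0 of 9 transport kinesins were at least 25% higher.

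Mitotic kinesins summed to 422 CPM in KO and 338 CPM in WT (log2 0.32, 0.30 to 0.34). Kif11 stood at 74.3 CPM in KO and 52.4 CPM in WT (log2 0.51, 0.46 to 0.55), Kif18a, which dampens chromosome movement at the spindle equator, at 27.1 and 20.1 CPM (0.43, 0.36 to 0.51), and Kif14 at 11.4 and 8.34 CPM (0.46, 0.34 to 0.57). Kif20b, a cytokinesis kinesin, stood at 73.5 CPM in KO and 55.9 CPM in WT (0.40, 0.35 to 0.44), and Kif15 at 68.3 and 56.0 CPM (0.29). Kif23 was the lowest of the list, at 51.3 CPM in KO and 49.7 CPM in WT (0.04, -0.01 to 0.10), and at -0.088 with WT cycle weights. Droplets of 100 to 300 UMIs, taken as empty, held Kif11 at 79.8 CPM in KO and 65.1 CPM in WT and Kif23 at 44.3 CPM in KO and 43.9 CPM in WT, near the levels in cells. In a separate setting, free RNA was set at 10% of UMIs with the profile of droplets of 10 to 100 UMIs. With that subtracted the mitotic kinesin sum differed by log2 0.34.

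Cenpf stood at 146.0 CPM in KO and 103 CPM in WT (log2 0.51, 0.48 to 0.54), the highest ratio of all members, and at 93.0 and 75.7 CPM in empty droplets. Cenpe stood at 85.3 CPM in KO and 65.5 CPM in WT (0.38, 0.34 to 0.42). Inner centromere proteins summed to 903 CPM in KO and 845 CPM in WT (log2 0.10, 0.08 to 0.11), a difference that was 0.025 with a minimum of 16000 UMIs per cell, 0.025 with WT cycle weights and 0.029 with median-of-ratios scaling. Cenpi at 8.68 and 6.59 CPM (0.40) and Cenpn at 16.3 and 12.4 CPM (0.39) passed the 25% threshold. Cenpa stood at 140 CPM in KO and 125 CPM in WT (0.16) and Cenpw, a histone-fold subunit, at 125 and 107 CPM (0.22). In this list of 17 members, 10 had intervals above 0 and 4 had intervals below 0. Those below 0 were Cenpx at 176 CPM in KO and 186 CPM in WT (-0.08), Cenpm at 40.7 and 43.6 CPM (-0.10), Cenps at 37.2 and 39.4 CPM (-0.08) and Cenpt at 11.4 and 12.4 CPM (-0.13).

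Transport kinesins summed to 190 CPM in KO and 175 CPM in WT (log2 0.12, 0.09 to 0.14). Kif5b, the conventional kinesin heavy chain, stood at 101 CPM in KO and 88.5 CPM in WT (0.19), Kif3a, the heterotrimeric kinesin-2 subunit, at 18.0 and 17.0 CPM (0.08), Kif16b at 14.4 and 13.8 CPM (0.06) and Kif13b at 14.2 and 15.6 CPM (-0.13). The remaining members had values of 93.3 CPM in KO and 83.4 CPM in WT for Kif2a (0.16), 6.29 and 5.56 CPM for Kif24 (0.18), 41.01 and 33.7 CPM for Cenpv (0.28, and -0.065 without erythroid-primed cells), 15.1 and 14.4 CPM for Cenpj (0.07) and 16.02 and 14.8 CPM for Kif1bp (0.11). Of the 44 members, 12 overlap another protein-coding gene in the annotation, among them Kif18a, Kif20a, Cenpn, Cenpt, Cenpx and Kif21a, and whether the counting used strand was not given in the sources used here.

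**Figure D2:**
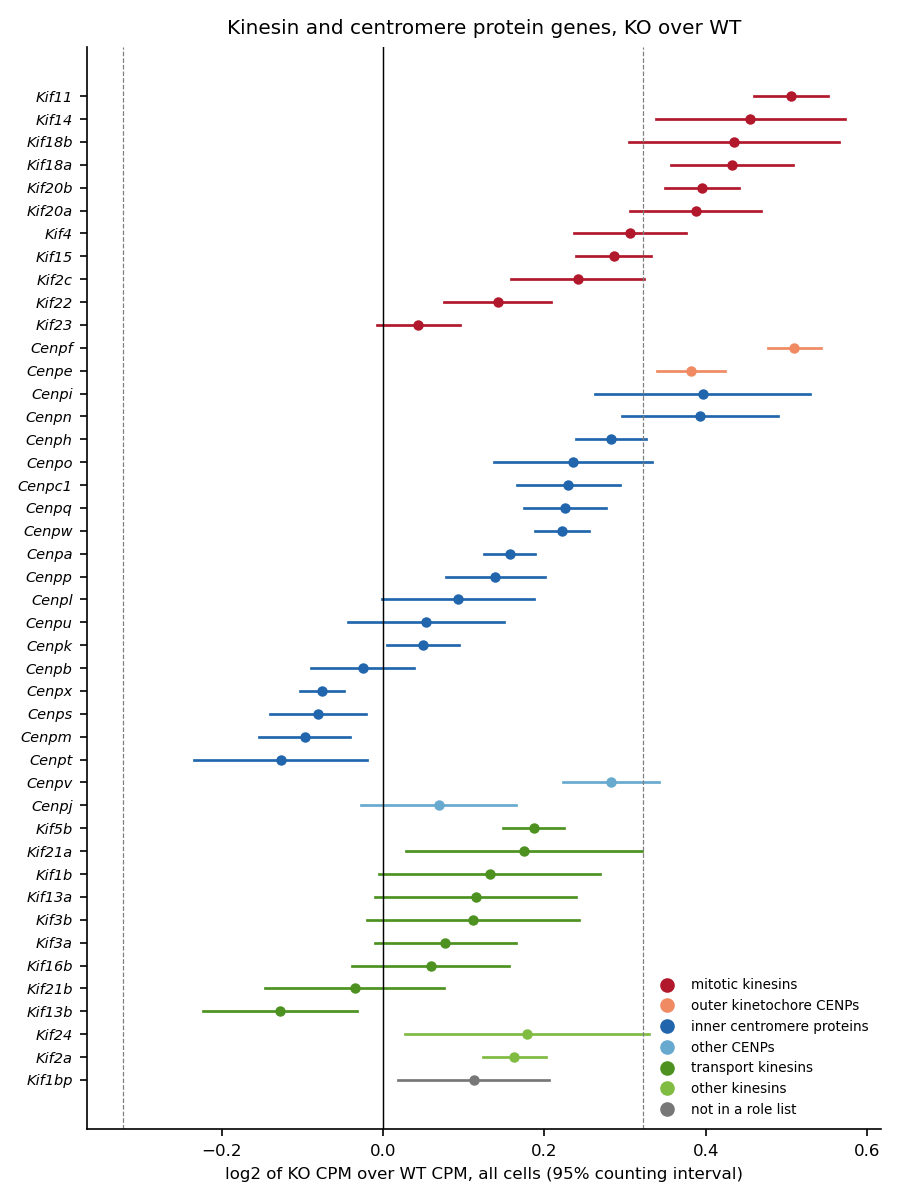
Log2 of KO over WT CPM over all cells for the 44 members, coloured by role; bars are 95% counting intervals and dashed lines mark 25% higher and 20% lower. Mitotic kinesins and the outer kinetochore CENPs lie to the right, with Cenpf and Kif11 at 0.51. Of 17 inner centromere proteins, 10 have intervals above 0 and 4 below 0. No member reaches the left dashed line.

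Genes that work beside the members at kinetochores and spindles were described from 5 lists. Of 62 genes, all measured, 16 were at least 25% higher in KO and 0 at least 20% lower, with a median log2 of 0.21, beside 7.47% higher, 2.56% lower and a median of 0.07 over all genes. Among outer kinetochore genes 3 of 10 were higher, led by Nuf2 (24.0 CPM in KO, 18.1 CPM in WT, 0.41) and Knl1 (79.6 and 60.3 CPM, 0.40), which hold microtubules, with Mis12 lowest (0.01). Among spindle checkpoint genes 4 of 10 were higher, with Bub1 at 36.5 CPM in KO and 25.4 CPM in WT (0.52), Zwilch at 0.40 and Bub3 lowest at 0.11. Among centromere loading and passenger genes 2 of 10 were higher, with the cohesin protector Sgo2a at 0.46, Incenp at 0.33 and Birc5 lowest at 0.11. Among spindle and cytokinesis genes 6 of 15 were higher, with Hmmr at 82.3 CPM in KO and 58.1 CPM in WT (0.50), Cit at 0.43 and Numa1 lowest at 0.02. Among dynein and dynactin genes, the minus-end motor of microtubules, 1 of 17 was higher: Dynlt1a at 0.33, followed by Dctn1 at 0.22, and Dctn3 was lowest at -0.17. Of the genes named here, Bub1, Sgo2a, Birc5, Hmmr and Nuf2 also belong to the lists that set the cycle gates. So do Ndc80, Cdca8, Tpx2, Prc1, Ect2, Aurka, Plk1, Nusap1 and Anln of these pathway lists.

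A larger share of KO than of WT cells lay in the G2 and M gates. Low cells made up 46.1% of KO and 53.0% of WT cells (difference -6.87 points, -9.16 to -4.57), S cells 28.6% and 28.0% (0.62 points, -1.44 to 2.71), G2 cells 14.2% and 9.60% (4.62 points, 3.12 to 6.18) and M cells 11.1% and 9.45% (1.63 points, 0.25 to 3.08). With a minimum of 16000 UMIs per cell the M difference was 0.10 points. With each cell thinned to 8000 UMIs, low cells made up 44.7% of KO and 52.1% of WT cells and M cells 12.2% of KO and 10.2% of WT cells. Cells in M had medians of 45341 UMIs in KO and 31342 in WT, against 24072 and 17344 in the low gate.

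Inside each gate the mitotic kinesin sum differed less between KO and WT than over all cells, by log2 0.26 in low, 0.14 in S, 0.09 in G2 and 0.12 in M cells. In low cells 10 of 44 members were at least 25% higher in KO (background 7.95%) and 0 at least 20% lower (background 2.23%), and in S cells 7 were higher (background 8.41%) and 0 lower (background 4.13%). In G2 cells the 2 higher were Kif3b and Cenpv (background 9.93%), with 0 lower (background 4.65%). In M cells the 3 higher were Cenpf, Cenpv and Kif24 (background 12.3%) and the 1 lower was Cenpm (background 3.44%). The share of members higher in KO thus lay above the background in low and S cells and below it in G2 and M cells.

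In low cells Kif14 stood at 3.79 CPM in KO and 2.18 CPM in WT (0.80, 0.44 to 1.16), Kif20a, a cytokinesis motor, at 10.4 and 6.94 CPM (0.58) and Kif4, a chromosome-arm kinesin, at 11.7 and 7.97 CPM (0.56), each at its lowest level of the 4 gates. Empty droplets held all 3 at higher levels than these low cells, with Kif14 at 13.1 CPM in KO and 11.1 CPM in WT, Kif20a at 33.4 and 25.1 CPM and Kif4 at 25.9 and 23.6 CPM, and the part of free RNA in the low-gate differences was not tested. Cenpa stood at 58.2 CPM in KO and 41.8 CPM in WT in S cells (0.48), and at 422 CPM in KO and 475 CPM in WT in M cells (-0.17). In M cells Cenpf stood at 544 CPM in KO and 430 CPM in WT (0.34, 0.29 to 0.38), and Cenpm at 43.6 CPM in KO and 56.3 CPM in WT (-0.37, -0.51 to -0.22). With WT cycle weights, KO levels in the 4 gates were averaged by the WT shares of gene UMIs, not of cells. Then 0 of 44 members were at least 25% higher (background 6.52%) and 0 at least 20% lower (background 2.22%). The mitotic kinesin sum was log2 0.14, and Cenpf, the highest member, was 0.31.

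**Figure D3:**
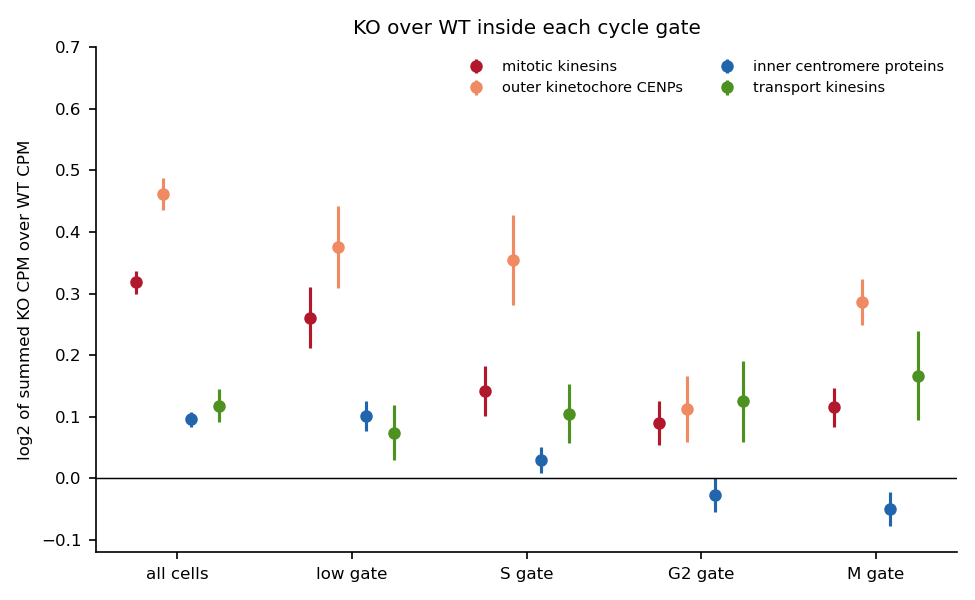
Log2 of summed KO CPM over summed WT CPM for 4 role lists over all cells and inside the low, S, G2 and M gates; points are ratios and bars 95% counting intervals. Mitotic kinesins stand at 0.32 over all cells and between 0.09 and 0.26 inside gates, and inner centromere proteins lie at -0.05 in M.

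Surface gates were set by the CD150 and CD48 tags. CD150+CD48- is a gate in which stem cells are enriched, and CD150-CD48+ holds more committed progenitors. The CD150+CD48- gate held 310 KO cells (11.3%) and 623 WT cells (11.6%). Set against CD150-CD48+ of the same library, it had 4 of 44 members at least 20% lower in KO, namely Kif21b, Kif23, Cenpm and Cenpo (background 12.1%), and 6 at least 25% higher (background 19.4%). In WT 17 members were at least 20% lower (background 7.72%) and 8 at least 25% higher (background 29.7%).

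Mitotic kinesins summed to 388 CPM in CD150+CD48- and 432 CPM in CD150-CD48+ cells of KO (log2 -0.15, -0.20 to -0.11), and to 273 and 347 CPM in WT (-0.35, -0.40 to -0.30). With a minimum of 16000 UMIs per cell these differences were -0.15 in KO and -0.03 in WT. Cenpf stood at 131 CPM in CD150+CD48- and 148 CPM in CD150-CD48+ KO cells (-0.18), and at 70.7 and 104 CPM in WT (-0.56). Kif15 differed by -0.15 in KO and -0.54 in WT, Cenph by -0.11 and -0.51, and Cenpe by -0.29 and -0.47. These 4 genes were chosen for their low WT values, so the sizes in KO and WT are given side by side and not compared.

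Of 9 transport kinesins, 4 in KO (background 19.4%) and 6 in WT (background 29.7%) were at least 25% higher in CD150+CD48- than in CD150-CD48+ cells. At least 20% lower were 1 in KO (background 12.1%) and 0 in WT (background 7.72%). The 1 lower was Kif21b, at 7.35 CPM in CD150+CD48- and 12.9 CPM in CD150-CD48+ KO cells (log2 -0.81) and at 10.5 and 12.1 CPM in WT (-0.21). The list summed to 211 CPM in CD150+CD48- and 185 CPM in CD150-CD48+ KO cells (log2 0.19), and to 217 and 166 CPM in WT (0.38). Kif1b, which carries synaptic vesicle precursors and mitochondria in neurons, stood at 10.1 and 7.11 CPM in KO (0.50) and 12.2 and 5.34 CPM in WT (1.20). Kif21a, a motor that steadies microtubule ends, stood at 12.5 and 5.28 CPM in KO (1.24) and 10.5 and 4.69 CPM in WT (1.16). Kif3a differed by 0.45 in KO and 0.62 in WT. The inner centromere gene Cenpt, which links the centromere to the outer kinetochore, stood at 18.9 and 9.96 CPM in KO (0.92) and at 24.6 and 10.2 CPM in WT (1.28), and it overlaps Tsnaxip1. Its list as a whole summed to 871 CPM in CD150+CD48- and 885 CPM in CD150-CD48+ KO cells (-0.02), and to 741 and 847 CPM in WT (-0.19).

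Within CD150+CD48- cells, those at or above the gate's median of CD201, a receptor used to enrich stem cells, had lower mitotic kinesin sums than the rest: 270 CPM in CD201 high and 470 CPM in CD201 low KO cells (log2 -0.80), and 173 and 338 CPM in WT (-0.97). CD201 high cells numbered 155 in KO and 312 in WT. M cells made up 2.58% of CD201 high and 13.5% of CD201 low KO cells, and 2.56% and 8.36% in WT. G2 cells made up 8.39% and 18.1% in KO, and 4.49% and 11.6% in WT. S cells made up 19.4% and 20.6% in KO, and 8.97% and 20.3% in WT. Low cells made up 69.7% of CD201 high and 47.7% of CD201 low KO cells, and 84.0% and 59.8% in WT. Median depths were 19959 and 29414 UMIs in KO, and 14010 and 18612 UMIs in WT. The part of cycle make-up and depth in these differences, and in those between libraries given below, was not tested. Of 44 members 25 were at least 20% lower in CD201 high cells of KO (background 7.69%) and 26 in WT (background 14.9%), while 7 in KO (background 22.2%) and 5 in WT (Kif13a, Kif16b, Kif1b, Cenpt and Kif1bp; background 29.5%) were at least 25% higher. Cenpf stood at 79.7 CPM in CD201 high and 166 CPM in CD201 low KO cells (-1.06), and at 35.9 and 93.5 CPM in WT (-1.38). Between libraries, 23 members were at least 25% higher in KO in CD201 high cells (background 22.2%) and 6 at least 20% lower (background 25.6%). In CD201 low cells 20 were higher (background 13.2%) and 3 lower (Kif13b, Kif21b and Cenpt; background 16.1%).

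Between KO and WT, mitotic kinesin sums differed by log2 0.51 (0.44 to 0.58) in CD150+CD48-, and by 0.18 in CD150-CD48-, 0.31 in CD150+CD48+ and 0.31 in CD150-CD48+. In CD150+CD48- 20 of 44 members were at least 25% higher in KO (background 15.1%) and 3, Kif13b, Kif21b and Cenpt, at least 20% lower (background 19%). Without lineage-primed cells Kif21b stood at 12.6 CPM in KO and 9.90 CPM in WT (0.35, -0.20 to 0.87). Over all CD150+CD48- cells, Cenpf stood at 131 CPM in KO and 70.7 CPM in WT (0.89) and Kif18a at 30.7 and 18.2 CPM (0.75). Kif23 stood at 37.4 and 43.6 CPM over all cells of that gate (-0.22). Without lineage-primed cells Kif23 stood at 61.3 CPM in KO and 49.8 CPM in WT (0.30, 0.06 to 0.53). In CD150-CD48- cells 7 members were higher in KO (background 11.9%) and 4, Kif21b, Kif23, Cenpb and Cenpt, lower (background 13.6%). In CD150+CD48+ cells 11 were higher (background 9.83%) and 0 lower (background 5.26%), and in CD150-CD48+ cells 10 were higher (background 8.09%) and 0 lower (background 1.1%).

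The make-up of CD150+CD48- differed between the libraries. There M cells made up 8.06% of KO and 5.46% of WT cells. Erythroid-primed cells made up 27.1% of the gate in KO and 4.98% in WT, and median depths were 23605 and 16083 UMIs. Stem cell markers summed to 962 CPM in KO and 1437 CPM in WT in this gate. With the WT shares of gene UMIs in the cycle gates, the mitotic kinesin difference in CD150+CD48- was log2 0.23, Cenpf 0.58 and Kif18a 0.48. Without lineage-primed cells, 164 KO and 468 WT cells remained, with mitotic kinesins at 414 CPM in KO and 277 CPM in WT (0.58, 0.49 to 0.67), 18 of 44 members at least 25% higher (background 16.7%) and 0 at least 20% lower (background 6.26%). Among these unprimed cells M cells made up 11.0% in KO and 5.56% in WT, and G2 cells 11.6% and 8.55%. In them Cenpf stood at 148 CPM in KO and 68.0 CPM in WT (1.12), and Kif11 at 70.8 CPM in KO and 41.9 CPM in WT (0.75). Unprimed CD150-CD48- cells had mitotic kinesins at 313 CPM in KO and 310.3 CPM in WT (0.01, -0.08 to 0.11), with 2 members higher (Kif11 and Cenpj; background 13.8%) and 3 lower (Kif14, Cenpm and Cenpv; background 6.25%). In unprimed CD150+CD48+ cells the sum differed by 0.44, with 20 members higher (background 16.3%) and 0 lower (background 4.7%), and in unprimed CD150-CD48+ cells by 0.35, with 11 higher (background 8.68%) and 0 lower (background 0.909%). With a minimum of 16000 UMIs per cell the mitotic kinesin difference in CD150+CD48- was 0.14.

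**Figure D4:**
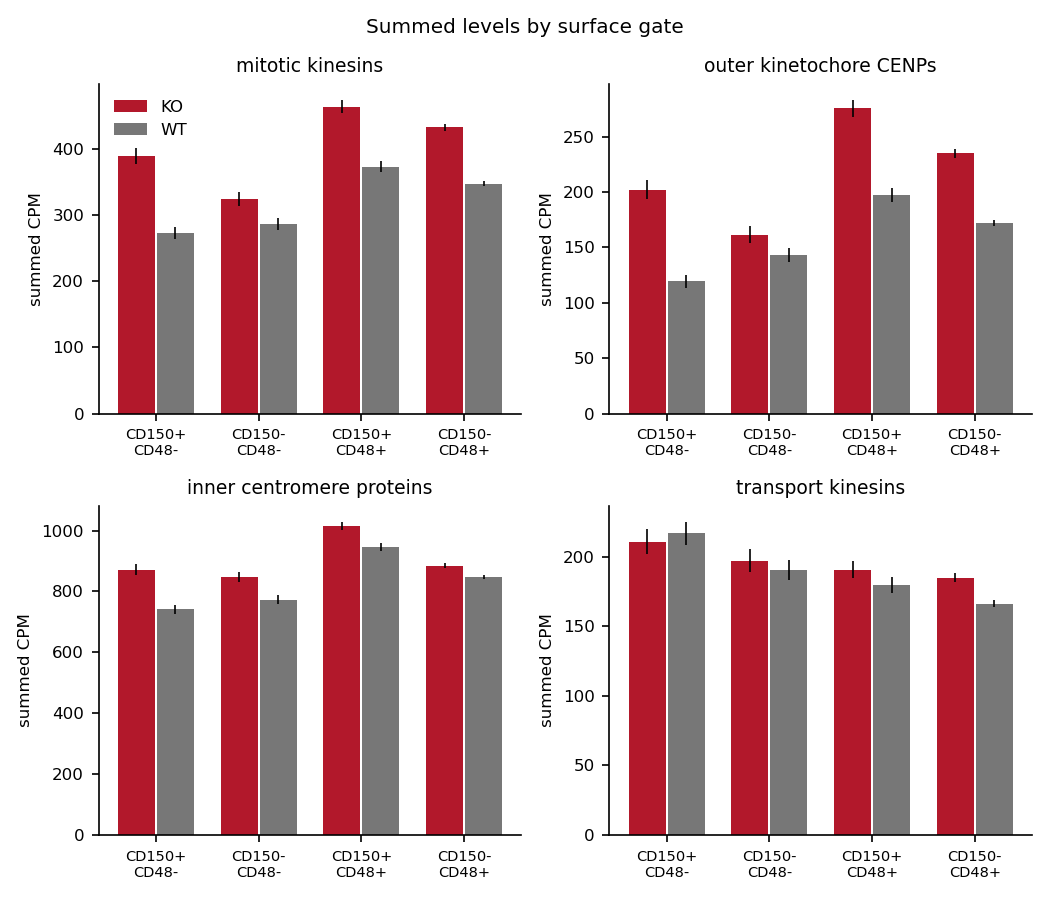
Summed CPM of 4 role lists in each surface gate, KO left of WT; bars are sums over the cells of a gate and error bars 95% counting intervals. Mitotic kinesins and outer kinetochore CENPs are higher in KO in all 4 gates, and transport kinesins are highest in CD150+CD48-, at 211 CPM in KO and 217 CPM in WT.

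Cells that carried lineage programmes were compared with unprimed cells of their own library. Cenpv, which binds tubulin and centromeric chromatin, stood at 106 CPM in erythroid-primed and 21.4 CPM in unprimed KO cells (log2 2.31, 2.21 to 2.41), and at 121 and 23.7 CPM in WT (2.35, 2.26 to 2.44). Between KO and WT it differed by log2 -0.19 in erythroid-primed and by -0.15 in unprimed cells. In CD150+CD48- cells it stood at 62.5 CPM in KO and 27.4 CPM in WT (1.19), and without lineage-primed cells at 16.5 and 17.1 CPM (-0.05).

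Kif23 was lower in erythroid-primed cells, at 21.5 CPM against 62.2 CPM in unprimed KO cells (log2 -1.53) and 19.5 against 53.9 CPM in WT (-1.47), and higher in lymphoid-primed cells, at 93.7 CPM in KO (0.59) and 79.7 CPM in WT (0.56). Kif21b, which pauses microtubule growth in lymphocytes and neurons, stood at 23.3 CPM in lymphoid-primed and 12.1 CPM in unprimed KO cells (0.94), and at 24.4 and 11.3 CPM in WT (1.12). Kif1b stood at 13.6 CPM in megakaryocyte-primed and 7.98 CPM in unprimed KO cells (0.77), and at 13.7 and 6.94 CPM in WT (0.99).

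Counted over the members, erythroid-primed cells had 12 of 44 at least 20% lower than unprimed cells in KO (background 39.3%) and 12 in WT (background 39.9%), and 6 in KO (background 21.5%) and 8 in WT (background 21.5%) at least 25% higher. Lymphoid-primed cells had 17 lower in KO (background 16.7%) and 24 in WT (background 17.1%), and only Kif21b and Kif23 higher, 2 in KO (background 18.2%) and 2 in WT (background 18.9%). Granulocyte-monocyte-primed cells had 14 lower in KO (background 22.6%) and 9 in WT (background 21.9%), and 2 higher in KO (Kif1b and Cenpv; background 10.3%) and 2 in WT (Cenpu and Cenpv; background 8.2%). Megakaryocyte-primed cells had 3 lower in KO (Kif20a, Kif23 and Cenpj; background 10.6%) and 8 in WT (background 7%), and 6 higher in KO (background 16.8%) and 5 in WT (Kif1b, Kif3a, Kif21a, Cenpb and Cenpt; background 12.2%).

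Mast and basophil-primed cells, 66 in KO and 77 in WT, had the lowest mitotic kinesin sums, 193 CPM in KO (log2 -1.23 against unprimed) and 184 CPM in WT (-0.94). Low cells made up 86.4% of this gate in KO and 89.6% in WT, against 44.4% and 51.1% of unprimed cells. The part of cycle make-up in these contrasts with unprimed cells was not tested. Of 44 members 33 were at least 20% lower than in unprimed KO cells (background 46.6%) and 30 in WT (background 38.8%), while 2 in KO (Kif1b and Kif1bp; background 23.6%) and 7 in WT (background 25.1%) were at least 25% higher. Kif1bp was higher there, at 61.1 CPM against 15.7 CPM in unprimed KO cells (1.96, 1.63 to 2.28) and 42.8 against 14.6 CPM in WT (1.56, 1.17 to 1.92).

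Between KO and WT, the mitotic kinesin sum was higher in KO by log2 0.28 in erythroid-primed, 0.54 in megakaryocyte-primed, 0.24 in granulocyte-monocyte-primed, 0.43 in lymphoid-primed and 0.37 in unprimed cells, and it differed by 0.07 (-0.18 to 0.32) in mast and basophil-primed cells. Low cells made up 36.5% of erythroid-primed KO and 50.2% of erythroid-primed WT cells, and 50.3% and 62.3% of megakaryocyte-primed cells. They made up 37.5% and 39.5% of granulocyte-monocyte-primed, 67.1% and 70.1% of lymphoid-primed and 44.4% and 51.1% of unprimed cells. M cells made up 15.4% of megakaryocyte-primed KO and 7.69% of megakaryocyte-primed WT cells. The part of cycle make-up in these differences was not tested. Unprimed cells had 12 of 44 members at least 25% higher in KO (background 7.1%) and 0 at least 20% lower (background 0.94%). Erythroid-primed cells had 14 higher (background 11.6%) and 0 lower (background 2.31%). Megakaryocyte-primed cells had 20 higher (background 18.4%) and 1 lower (Kif21a; background 6.68%), and lymphoid-primed cells 16 higher (background 14.6%) and 1 lower (Cenpm; background 5.16%). Granulocyte-monocyte-primed cells had 8 higher (background 15.4%) and 0 lower (background 3.46%), and mast and basophil-primed cells 10 higher (background 19.3%) and 16 lower (background 26.1%). Inner centromere proteins summed to 421 CPM in KO and 533 CPM in WT in mast and basophil-primed cells (-0.34, -0.50 to -0.18).

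**Figure D5:**
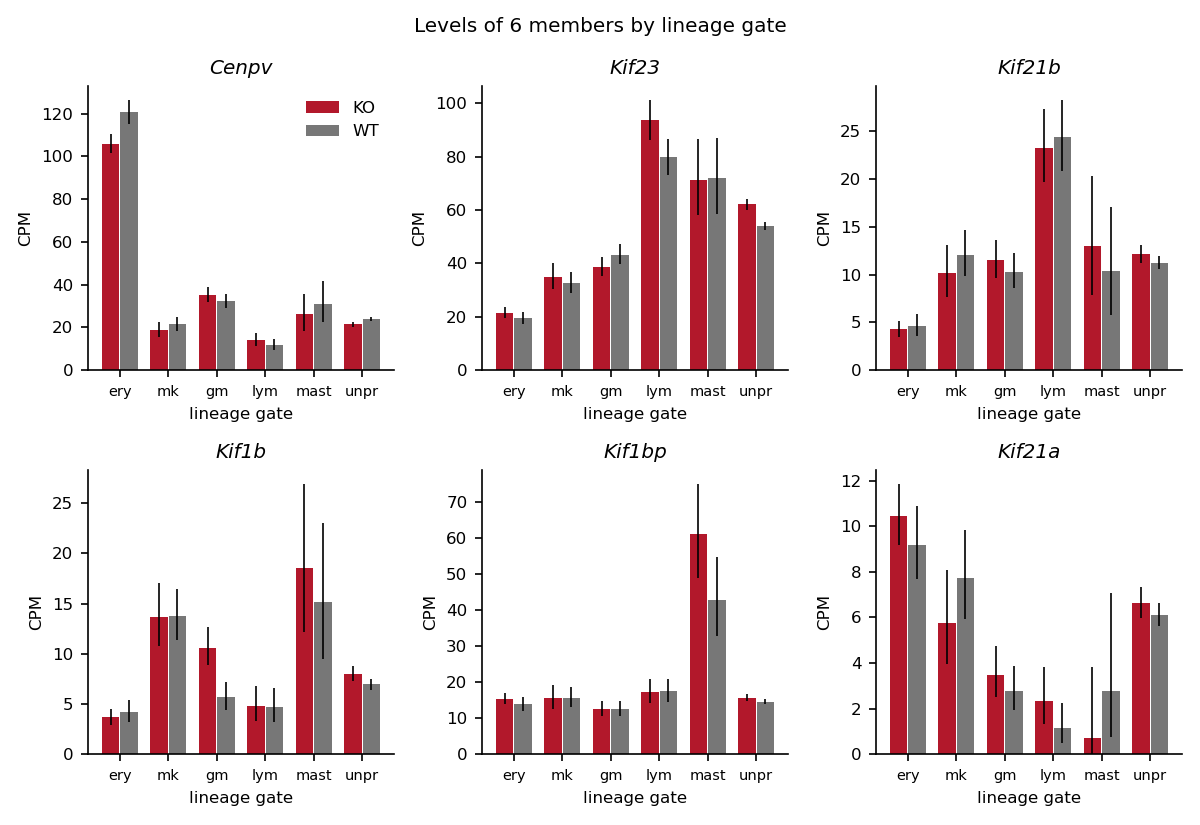
CPM of 6 members in the lineage gates (ery erythroid, mk megakaryocyte, gm granulocyte-monocyte, lym lymphoid, mast mast and basophil, unpr unprimed), KO left of WT; bars are levels over the cells of a gate and error bars 95% counting intervals. Cenpv peaks in erythroid-primed cells at 106 CPM in KO and 121 CPM in WT, and Kif1bp in mast and basophil-primed cells at 61.1 and 42.8 CPM.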

How the data were processed

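The authors deposited, for each genotype, matrices of raw UMI counts over all barcodes that hold genes and antibody tags, made with Cell Ranger 4.0.6 on mm10, per the submitters' processing notes; the file headers name Cell Ranger 4. Cells had at least 8000 gene UMIs, 500 genes and at most 10% mitochondrial UMIs. UMIs were summed over the cells of a library or gate and given per 1000000 gene UMIs (CPM). Ratios carry exact conditional binomial 95% intervals of 2 Poisson counts, shares Clopper-Pearson and differences Newcombe intervals, all for counting error only. A gene was called higher at 25% or more and lower at 20% or more, over genes of at least 5 CPM. Surface gates used the centred log ratio of 6 tags plus 1, divided by a mixture of 2 components per library. Doublets were not removed. Lineage gates took the top 8% of cells by each marker list (2% for mast cells). Interval calculation was tested on simulated counts. The members, lists and rules were chosen with earlier results of these data known. Named members were the 4 with the highest CPM per role, by the interval bound nearest to 0 the 6 highest and up to 6 lowest in KO over WT (5 had an interval below 0), the 4 highest and lowest between CD150+CD48- and CD150-CD48+ in WT, the 4 highest in M and in S over low in WT, and in each pathway list the 2 highest and the lowest; others named were chosen after their values were seen. Python 3.11.15, scipy 1.17.1 and scikit-learn 1.9.0 were used. The alternatives are given in the closing section.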

Additional observations from a re-analysis of the deposited data

How the results depend on the processing

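Counts of members have no sign, and over the settings run they ranged from 0 to 14 for higher in KO and from 0 to 2 for lower. None of the role sums nor the M share difference changed sign under the alternatives run, but some members did. Over all cells, Kif22 was log2 -0.023 and Cenpk -0.039 with WT cycle weights, Cenpk -0.057 with a minimum of 16000 UMIs and -0.018 with median-of-ratios scaling, and Cenpv -0.065 without erythroid-primed cells. In CD150+CD48- without lineage-primed cells, Kif21b was 0.35, Kif23 0.30 and Cenpv -0.049, and Kif23 was 0.039 by the mean over cells. These values of single members, for those whose interval did not hold 0, were added after seeing the data. With a minimum of 16000 UMIs per cell, 5 members were at least 25% higher in KO. The share over all genes was not computed at that minimum, so this count has no background. The mitotic kinesin sum was then log2 0.22, the inner centromere sum 0.025 and the mitotic kinesin sum in CD150+CD48- 0.14. At the same minimum the CD150+CD48- over CD150-CD48+ sum was -0.15 in KO and -0.034 in WT, and the M share difference 0.10 points. With the minimum scaled in KO to the ratio of median depths (11799 UMIs, chosen after seeing the data) the mitotic kinesin sum was 0.33. With WT cycle weights 0 members were higher (background 6.52%). The mitotic kinesin, inner centromere and CD150+CD48- mitotic kinesin values were then 0.14, 0.025 and 0.23. Thinning gave 0.35 and 0.11 for the mitotic and inner centromere sums, 0.66 in CD150+CD48- and -0.50 between the gates in WT; the mean over cells gave 0.37, 0.11, 0.68 and -0.47. Without the cells with the most UMIs, mitotic and inner centromere sums were 0.37 and 0.12; with free RNA subtracted the mitotic and transport sums were 0.34 and 0.17. With median-of-ratios scaling the mitotic, inner centromere and transport sums were 0.25, 0.029 and 0.051. Without erythroid-primed cells the mitotic and inner centromere sums were 0.35 and 0.080. Natural logs of tags gave 0.40 in CD150+CD48- and -0.31 between gates in KO, and quantile limits gave -0.10; leaving out lineage-primed cells, chosen after seeing the data as was leaving out erythroid-primed cells, gave 0.58. A member minimum of 20 CPM left 6 of 24 higher (5.5% of all genes of that level); with 1 UMI in each library as the minimum, 14 of 58 were higher (23.2% of all genes) and 2 lower (12.1%), Kif6 at 0.181 CPM in KO and 0.290 CPM in WT and Kif27 at 0.019 and 0.042 CPM. An M gate of the top 5% gave 0.26 points and one of the top 20% gave 4.61 points. The cause of these shifts was not tested. No paired analysis was possible because each genotype was 1 library. Depth limits members near 5 CPM and gates of few cells, such as the mast and basophil gate.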
